A study of Mus musculus with 30 samples.

Results

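The genes described here are 9 that write, read or remove DNA methylation: the DNA methyltransferases Dnmt1, Dnmt3a and Dnmt3b, the methyl-CpG binding proteins Mbd1 and Mbd2, the oxidases Tet1, Tet2 and Tet3, and Gadd45b. They were taken by symbol from a table of 55335 genes, and all 9 were found. All 9 also passed the filter on low counts that left 19368 genes for testing, Dnmt3b only narrowly. The RNA was ribosome-associated RNA from the nucleus accumbens of female mice. In D1-Cre-RT mice the tagged ribosomes (RiboTag, RT) are made in the neurons in which the dopamine D1 receptor promoter drives Cre. In A2A-Cre-RT mice they are made in the neurons that express the adenosine A2A receptor, which are the medium spiny neurons with dopamine D2 receptors. These libraries are called D2. Each class came from its own mouse line, so a class difference cannot be told apart from a difference between the lines. Control mice were not stressed, and the other mice underwent chronic witness defeat stress, in which an animal watches another being defeated. The stressed mice were grouped by social interaction score into Resilient and Susceptible. The nucleus accumbens was collected 24 h after that behavioural test, and each library pooled 4 mice of similar score. All 6 groups (3 conditions in each neuron class) held 5 libraries, 30 in all, and all mice carried the tagged ribosome. No source used here gives the ages.

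DNA methylation is set on cytosines, mostly in CpG pairs, by methyltransferases. Dnmt1 copies the pattern onto new strands at replication and stays expressed in neurons, while Dnmt3a and Dnmt3b methylate new sites, Dnmt3a being the main such enzyme in maturing neurons. Mbd1 and Mbd2 bind methylated CpG and recruit repressor complexes. The TET enzymes oxidise 5-methylcytosine to 5-hydroxymethylcytosine, a base abundant in neurons, and Gadd45b, an activity-induced gene, has been linked to removal of the mark through DNA repair. In the nucleus accumbens several of these genes have been studied for their part in responses to stress and drugs.

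Gene counts per library ran from 28996168 to 65882152. The lowest belonged to D1 Susceptible replicate 1, where 41.2% of the reads fell outside genes, against 5.20% to 11.1% in the other 29 libraries. In this library 1 CPM (the usual depth-normalised count, on library sizes scaled by TMM) stood for 9.86 counts. In the others it stood for at least 41.2, so the values of D1 Susceptible replicate 1 are the least precise. The scaling also raised its CPM values: 3 counts equalled 0.103 CPM by gene counts alone and 0.304 CPM after TMM. In D1 Control replicate 5, the next lowest in gene counts, these values were 0.0741 and 0.0728. High CPM values of D1 Susceptible replicate 1 therefore depend on this scaling. D2 Susceptible replicates 1 and 2 had counts in 15822 and 16525 genes, and the other 28 libraries in 19440 to 22375. The summed level of 6 D1 markers (Drd1, Pdyn, Tac1, Isl1, Sfxn1 and Eya1) was 1695 to 2552 CPM in the D1 libraries. It was 269 to 1816 CPM in the D2 libraries, the highest of which were Resilient replicate 5 and Control replicate 5 (1215 CPM). The 5 D2 markers (Drd2, Adora2a, Penk, Gpr6 and Sp9) summed to 4867 to 12799 CPM in D2 and to 1120 to 2771 CPM in D1. By D2 markers every library matched its labelled class. By D1 markers 1 did not: D2 Resilient replicate 5, at 1816 CPM, lay inside the D1 range and had the lowest D2 marker sum of its class. In such pooled RNA, fewer cells of a type and less RNA per cell cannot be told apart.

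Levels were compared between genes as CPM per kilobase of merged exons, averaged over the 30 libraries with their SD. Mbd2 stood first at 16.5 ± 3.42, and Gadd45b came next at 10.9 ± 1.74. Mbd1 followed at 6.64 ± 1.06. These 3 genes kept their order in all 30 libraries, except that Mbd1 was above Dnmt3a in 28 of 30. Dnmt3a (4.26 ± 0.508) and Dnmt1 (3.70 ± 0.928) were neighbours whose order was less settled, with Dnmt3a the higher in 21 of 30 libraries. Tet3 reached 2.95 ± 0.373, and Dnmt1 was above it in 25 of 30. Tet2 lay at 0.973 ± 0.198 and Tet1 at 0.472 ± 0.0991, in this order in every library. Tet3 thus led its family, with a range that did not touch that of Tet2. Dnmt3b was nearly absent at 0.0337 ± 0.0547. With the longest coding transcript of each gene as its length the order of the 9 genes was the same, but the gaps changed. Dnmt3a then averaged 7.31 CPM per kilobase, and Dnmt1 (4.65) and Tet3 (4.51) lay close together.

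**Figure D1:**
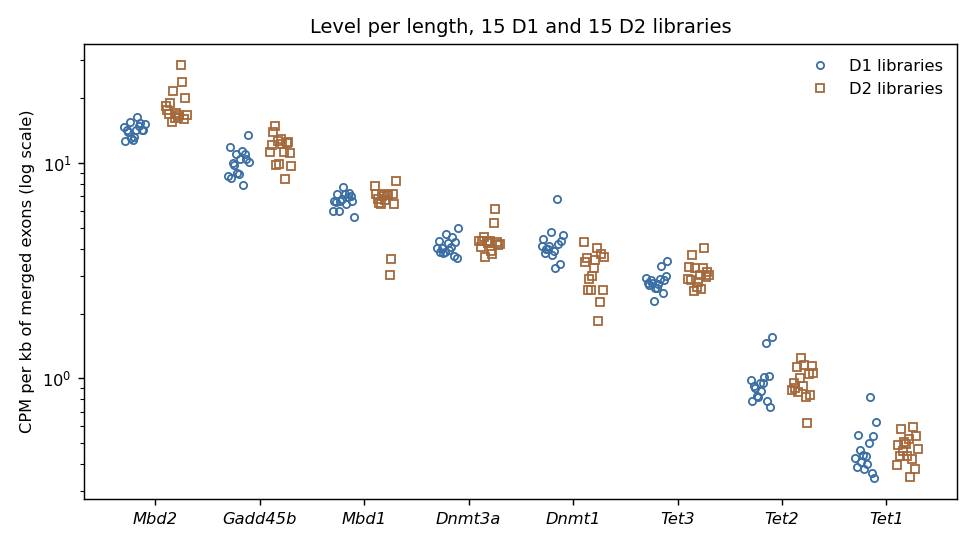
Level of 8 genes as CPM per kilobase of merged exons (log axis), with 1 point for each of the 15 D1 (circles) and 15 D2 (squares) libraries. Mbd2 is the highest and Tet1 the lowest of those drawn, the D2 squares of Mbd2 sit mostly above the D1 circles, and those of Dnmt1 mostly below. Dnmt3b, at 0 in 6 libraries, is left out of the log axis.

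Dnmt1 (ENSMUSG00000004099, GRCm38 chr9:20907209-20959888, minus strand) was the one writer to pass the test between the neuron classes. In D1 Control the libraries held 30.5, 32.9, 28.2, 29.4 and 29.5 CPM, in D1 Resilient 30.3, 35.2, 27.5, 28.9 and 23.9, and in D1 Susceptible 50.1, 31.0, 25.0, 31.9 and 34.1. In D2 Control they held 31.9, 25.6, 26.7, 18.9 and 21.3 CPM, in D2 Resilient 19.0, 22.1, 24.1, 26.2 and 29.8, and in D2 Susceptible 13.6, 16.6, 28.0, 18.9 and 26.9. The ranges of the classes overlapped: 5 of the 15 D1 libraries lay above all D2 libraries, and the lowest 2 values of all came from D2 Susceptible replicates 1 and 2. Dnmt1 averaged 31.2 ± 6.05 CPM over the 15 D1 libraries and 23.3 ± 5.18 CPM over the 15 D2 libraries (SD). The level in D1 was 1.34-fold higher, log2 0.42 (SE 0.102), with an adjusted p of 0.00207 by edgeR's quasi-likelihood test. The highest value, 50.1 CPM in D1 Susceptible replicate 1, came from 494 counts and depends on the TMM scaling of that library. With DESeq2 size factors in place of TMM the class difference was 0.41. Without D1 Susceptible replicate 1 the difference was 0.36. Without the 4 libraries that stood apart (D2 Susceptible replicates 1 and 2, D1 Susceptible replicate 1 and D2 Resilient replicate 5) it was 0.31 with an edgeR adjusted p of 0.00305. In Control libraries alone the difference of 0.27 (SE 0.175, edgeR adjusted p 0.438) did not pass the test.

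The deposited values are totals per gene and cannot tell the starts of a gene apart. RefSeq lists 3 starts for Dnmt1, and the 250 bases before them hold 26, 7 and 2 CpG pairs, against a median of 6 over 32841 mouse promoters. The most CpG-rich of the 3 is printed because Dnmt1 was the writer that passed the test between classes. This window precedes the start at 20952623 but lies downstream of the other starts, at 20952979 and 20959888. For transcripts from those starts it is sequence inside the gene. It lies on GRCm38.p6 at chr9:20952624-20952873, minus strand, written 5′ to 3′ with each CpG in capitals, and 90.4% of promoters have fewer CpG pairs. It holds the GC box letters GGGCGG 2 times (either strand), which 32.7% of promoters hold at least once.
Dnmt1: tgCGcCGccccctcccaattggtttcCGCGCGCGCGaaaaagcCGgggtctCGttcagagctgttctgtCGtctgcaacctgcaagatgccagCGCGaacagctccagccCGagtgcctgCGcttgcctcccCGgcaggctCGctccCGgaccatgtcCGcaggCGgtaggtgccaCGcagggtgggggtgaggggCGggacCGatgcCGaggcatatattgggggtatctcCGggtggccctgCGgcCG

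Dnmt3a (ENSMUSG00000020661, chr12:3806007-3914443, plus strand), the main writer of new methylation in neurons, was among the steadiest of the 9. Its libraries ranged from 60.4 to 82.8 CPM in D1 and from 61.1 to 101 CPM in D2. The highest 2 values, 101 and 87.9 CPM, came from D2 Susceptible replicates 2 and 1, while the other 3 libraries of that group held 71.8, 69.0 and 70.2 CPM. In D2, Susceptible averaged 80.1 ± 14.2 CPM (SD, n = 5), Control 69.7 ± 5.56 and Resilient 68.7 ± 4.19. The log2 difference was 0.20 (SE 0.0977, edgeR adjusted p 0.317) against Control and 0.22 (SE 0.0977, edgeR adjusted p 0.214) against Resilient. Neither passed the test, and without those 2 libraries the values were 0.01 and 0.03. Between the classes Dnmt3a differed by -0.08 (SE 0.0565, edgeR adjusted p 0.319, negative values being lower in D1).

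Dnmt3b (ENSMUSG00000027478, chr2:153649450-153687730, plus strand), a writer used mainly in early development, was barely detected. It had 0 counts in 6 libraries, which allows 3 counts or up to 0.0441 to 0.0603 CPM there for counting error only. In the rest it had up to 15 counts, apart from 43 in D2 Control replicate 5 (0.616 CPM) and 70 in D2 Susceptible replicate 1 (1.50 CPM). No comparison of Dnmt3b passed the test, and the standard errors of its log2 changes were 1.22 or more within a class. A change of Dnmt3b was therefore not detectable at this depth.

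Mbd2 (ENSMUSG00000024513, chr18:70568189-70626131, plus strand), a reader that brings the NuRD repressor complex to methylated DNA, was higher in D2. D1 Control libraries held 47.2, 40.8, 45.5, 44.8 and 50.1 CPM, D1 Resilient 41.9, 41.1, 42.3, 45.6 and 52.8, and D1 Susceptible 47.7, 49.1, 45.5, 45.7 and 48.5. D2 Control libraries held 58.8, 56.7, 54.4, 61.2 and 49.8 CPM, D2 Resilient 69.7, 52.2, 54.8, 52.5 and 53.5, and D2 Susceptible 91.9, 76.2, 51.5, 64.2 and 53.4. The classes nearly separated: 13 of the 15 D1 libraries lay below every D2 library. The mean was 45.9 ± 3.44 CPM in D1 against 60.0 ± 11.5 CPM in D2 (SD, n = 15 each), and the D1 level was 0.767 times that of D2, log2 -0.38 (SE 0.0668, edgeR adjusted p 4.51e-05). This was the smallest p among the 9 genes in that comparison. Without D2 Susceptible replicates 1 and 2, which held the highest 2 values, the difference was -0.28 with an edgeR adjusted p of 6.95e-05. In Control libraries alone it was -0.30 (SE 0.116, edgeR adjusted p 0.118), which missed the threshold over all 5 libraries a group. It passed in the fit without the 4 libraries (-0.30, edgeR adjusted p 0.0137). None of the 4 is a Control library, so the same Control libraries were compared and the estimates shared over all groups changed.

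Within D2, Mbd2 was 67.4 ± 16.9 CPM in Susceptible, 56.2 ± 4.37 in Control and 56.5 ± 7.41 in Resilient (SD, n = 5 each). The log2 difference of Susceptible was 0.26 (SE 0.115, edgeR adjusted p 0.267) from Control and 0.25 (SE 0.115, edgeR adjusted p 0.224) from Resilient. The ranges overlapped, and neither difference passed the test. Without replicates 1 and 2 of Susceptible they were -0.00 and -0.01.

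Mbd1 (ENSMUSG00000024561, chr18:74267605-74282732, plus strand), a reader that also binds unmethylated CpG through other domains, did not pass the test between classes, with 45.0 ± 3.73 CPM in D1, 44.0 ± 9.51 in D2 and a log2 value of 0.04 (SE 0.0932, edgeR adjusted p 0.802). Its spread was widest in D2 Susceptible, with libraries at 20.1, 24.0, 48.3, 43.3 and 55.3 CPM. D2 Control held 52.5, 47.9, 45.6, 43.6 and 43.0 CPM, and D2 Resilient 47.1, 48.3, 45.1, 47.8 and 47.6. Thus replicates 1 and 2 of D2 Susceptible had about the same low level, and its replicate 5 the highest level of all 30 libraries. The log2 difference was -0.28 (SE 0.161, edgeR adjusted p 0.390) from Control and -0.30 (SE 0.161, edgeR adjusted p 0.305) from Resilient, and neither passed the test. It turned to 0.07 and 0.05 without these 2 libraries.

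Of the erasers, Tet1 (ENSMUSG00000047146, chr10:62804570-62908996, minus strand) and Tet2 (ENSMUSG00000040943, chr3:133463679-133545139, minus strand) moved together from library to library. Tet1 held 12.7, 5.62, 8.37, 5.32 and 9.68 CPM in D1 Susceptible, against 5.98 to 8.46 in D1 Control and 5.84 to 7.76 in D1 Resilient. Tet2 held 24.8, 13.2, 17.3, 12.5 and 26.3 CPM in the same 5 libraries, against 13.3 to 16.6 and 13.8 to 17.0. For both genes replicates 1 and 5 were the highest of the group and replicate 4 the lowest, so the group spanned its controls on both sides. The values of replicate 1, from 125 counts of Tet1 and 244 of Tet2, depend on the TMM scaling of that library. The log2 difference from D1 Control was 0.25 (SE 0.190) for Tet1 and 0.33 (SE 0.173, unadjusted p 0.0690) for Tet2, with an edgeR adjusted p of 1 for each. Without D1 Susceptible replicate 1 the Tet1 value was 0.08, and without replicate 5 the Tet2 value was 0.17. In D2 Susceptible, Tet1 ranged from 5.89 to 9.24 CPM and Tet2 from 10.5 to 19.3 CPM, around the D2 Control ranges of 6.13 to 8.96 and 14.7 to 19.0. Averaged over conditions, the class values were -0.01 (SE 0.109) for Tet1 and -0.01 (SE 0.0994) for Tet2, neither past the test.

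Across the 30 libraries log2 CPM of Tet1 and Tet2 had a Pearson r of 0.80 and a Spearman rho of 0.80. It was 0.86 within the 15 D1 libraries, 0.70 within the 15 D2 libraries and 0.81 after each group's mean was subtracted. Without the 2 libraries farthest out on Tet1, D1 Susceptible replicates 1 and 5, r was 0.70. Each of the pair was the other's most similar gene among 10203 candidates with a mean of at least 5 CPM, and remained so without the 4 libraries that stood apart (r 0.81). All such correlations are descriptions over libraries that share depth and other properties. Tet1 also followed Tet3 (r 0.59), and Tet2 did so less evenly (0.44, with 0.76 in D1 and 0.17 in D2). The RefSeq promoters of the pair are printed because the genes moved together. They have unlike CpG contents, 15 pairs in the 250 bases before the Tet1 start and 51 before that of Tet2, which is more than in 99.9% of promoters. They lie on GRCm38.p6 at chr10:62887325-62887574 and chr3:133544391-133544640, both on the minus strand, written 5′ to 3′ with each CpG in capitals. Both windows lie inside the gene coordinates given above, whose 5′ ends are at 62908996 for Tet1 and 133545139 for Tet2. For transcripts from those ends they are sequence inside the gene. Each window holds the GC box letters GGGCGG 1 time. Neither holds the letters TGACGTCA of the cAMP response element or the E-box letters CACGTG, which 1.55% and 6.02% of promoters hold.
Tet1: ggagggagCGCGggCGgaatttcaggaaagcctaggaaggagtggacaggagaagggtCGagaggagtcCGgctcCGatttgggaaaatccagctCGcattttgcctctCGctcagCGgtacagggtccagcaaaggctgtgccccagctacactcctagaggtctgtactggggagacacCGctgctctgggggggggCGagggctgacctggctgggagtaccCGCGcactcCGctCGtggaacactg
Tet2: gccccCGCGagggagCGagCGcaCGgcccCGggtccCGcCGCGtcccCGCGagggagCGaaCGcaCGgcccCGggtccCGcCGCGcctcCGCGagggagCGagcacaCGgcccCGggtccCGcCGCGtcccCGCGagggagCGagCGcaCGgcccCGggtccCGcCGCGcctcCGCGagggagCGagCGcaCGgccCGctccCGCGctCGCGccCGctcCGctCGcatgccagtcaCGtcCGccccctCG

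**Figure D2:**
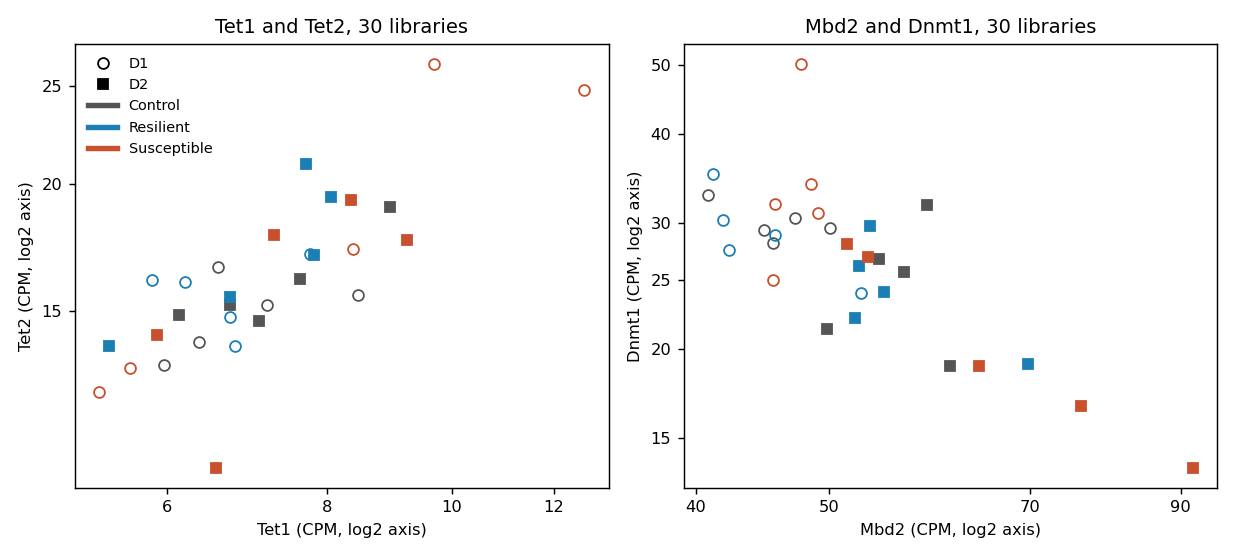
Tet2 against Tet1 (left) and Dnmt1 against Mbd2 (right) in CPM on log2 axes, 1 point for each of the 30 libraries, with open circles for D1, filled squares for D2 and colours for the condition. The Tet points rise together, with D1 Susceptible replicates 1 and 5 at the upper right, and the D2 squares of Dnmt1 fall as Mbd2 rises, ending at D2 Susceptible replicate 1.

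Tet3 (ENSMUSG00000034832, chr6:83362373-83459084, minus strand), the most abundant oxidase here and the main one of mature neurons, spread little in unstressed D1 neurons. D1 Control held 49.1, 46.4, 45.1, 47.8 and 46.4 CPM, D1 Resilient 38.2, 43.7, 43.9, 45.9 and 48.1, and D1 Susceptible 55.3, 41.5, 47.8, 49.9 and 58.9. Susceptible and Resilient overlapped, and replicates 1 and 5 of Susceptible were again the highest. The log2 difference between them was 0.20 (SE 0.103, unadjusted p 0.0562, edgeR adjusted p 1). In D2 the same comparison also gave 0.20 (SE 0.102, edgeR adjusted p 0.297), with 49.5 to 67.2 CPM in Susceptible and 43.4 to 54.1 in Resilient. Without D2 Susceptible replicates 1 and 2 it was 0.08. Tet3 was 47.2 ± 5.05 CPM in D1 and 51.2 ± 6.78 in D2 (SD, n = 15 each), a difference of -0.12 (SE 0.0591, edgeR adjusted p 0.135) that did not pass.

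Gadd45b (ENSMUSG00000015312, chr10:80930073-80932204, plus strand) held 13.9, 18.7, 13.6, 15.8 and 15.6 CPM in D1 Control and 17.8, 19.2, 22.0, 23.6 and 15.6 in D2 Control. The ranges overlapped from 15.6 to 18.7 CPM, with the lowest values in D1 and the highest in D2. Over all conditions it was 16.2 ± 2.31 CPM in D1 and 18.5 ± 2.73 in D2 (SD, n = 15 each). The log2 difference was -0.19 (SE 0.0795, edgeR adjusted p 0.0667), just outside the threshold, and DESeq2 placed it inside (-0.20, adjusted p 0.0390). The alternatives gave adjusted p values of 0.0370 to 0.175. In Control alone it was -0.34 (SE 0.138, edgeR adjusted p 0.140), and -0.34 with an edgeR adjusted p of 0.0441 without the 4 libraries that stood apart. As none of the 4 is a Control library, the Control libraries compared were the same in both fits.

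The log2 differences of Gadd45b from Control were 0.13 (SE 0.138) in D1 Susceptible, 0.06 (SE 0.138) in D1 Resilient, -0.19 (SE 0.137) in D2 Susceptible and -0.07 (SE 0.137) in D2 Resilient. None passed the test, and every 95% interval included 0. Activity genes that share its induction by neuronal firing (Fos, Fosb, Junb, Arc, Egr1, Npas4 and Nr4a1) had lower values in D1, all 7 of 7 in both stressed groups. Their median log2 change was -0.28 in Susceptible and -0.35 in Resilient, beside medians of -0.01 and -0.01 over all genes tested. No activity gene passed the test in D1, and 3 and 4 of the 7 had unadjusted p values under 0.05. In D2 Susceptible the median was -0.51, again with 7 of 7 lower and none past the test, and in D2 Resilient it was -0.06, with 3 of 7 above 0. Markers of other cells also had negative values in D1 Resilient against Control. Medians were -0.82 for 7 astrocyte, -0.52 for 7 oligodendrocyte, -0.60 for 7 microglial and -0.40 for 6 endothelial markers. Every one of them was below 0 and none passed the test, with edgeR unadjusted p values under 0.05 for 5, 6, 1 and 0. D2 neuron markers were above 0 there (5 of 5, median 0.14). In D1 Susceptible the astrocyte, oligodendrocyte, microglial and endothelial medians were -0.23, -0.34, -0.24 and 0.46. In D2 Susceptible interneuron markers had a median of -0.75 and D1 neuron markers of -0.68. Within D1 Control, replicate 1 had the highest oligodendrocyte and microglial sums, 1044 and 42.2 CPM, against group medians of 601 and 14.4. The part of these cells in the activity gene values was not tested. In D1 the Gadd45b values were above 0 and the activity genes below, but the Gadd45b intervals included 0, so its direction there is not settled. In D2, Gadd45b and the activity gene median were both below 0 in Susceptible (-0.19 and -0.51) and in Resilient (-0.07 and -0.06).

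**Figure D3:**
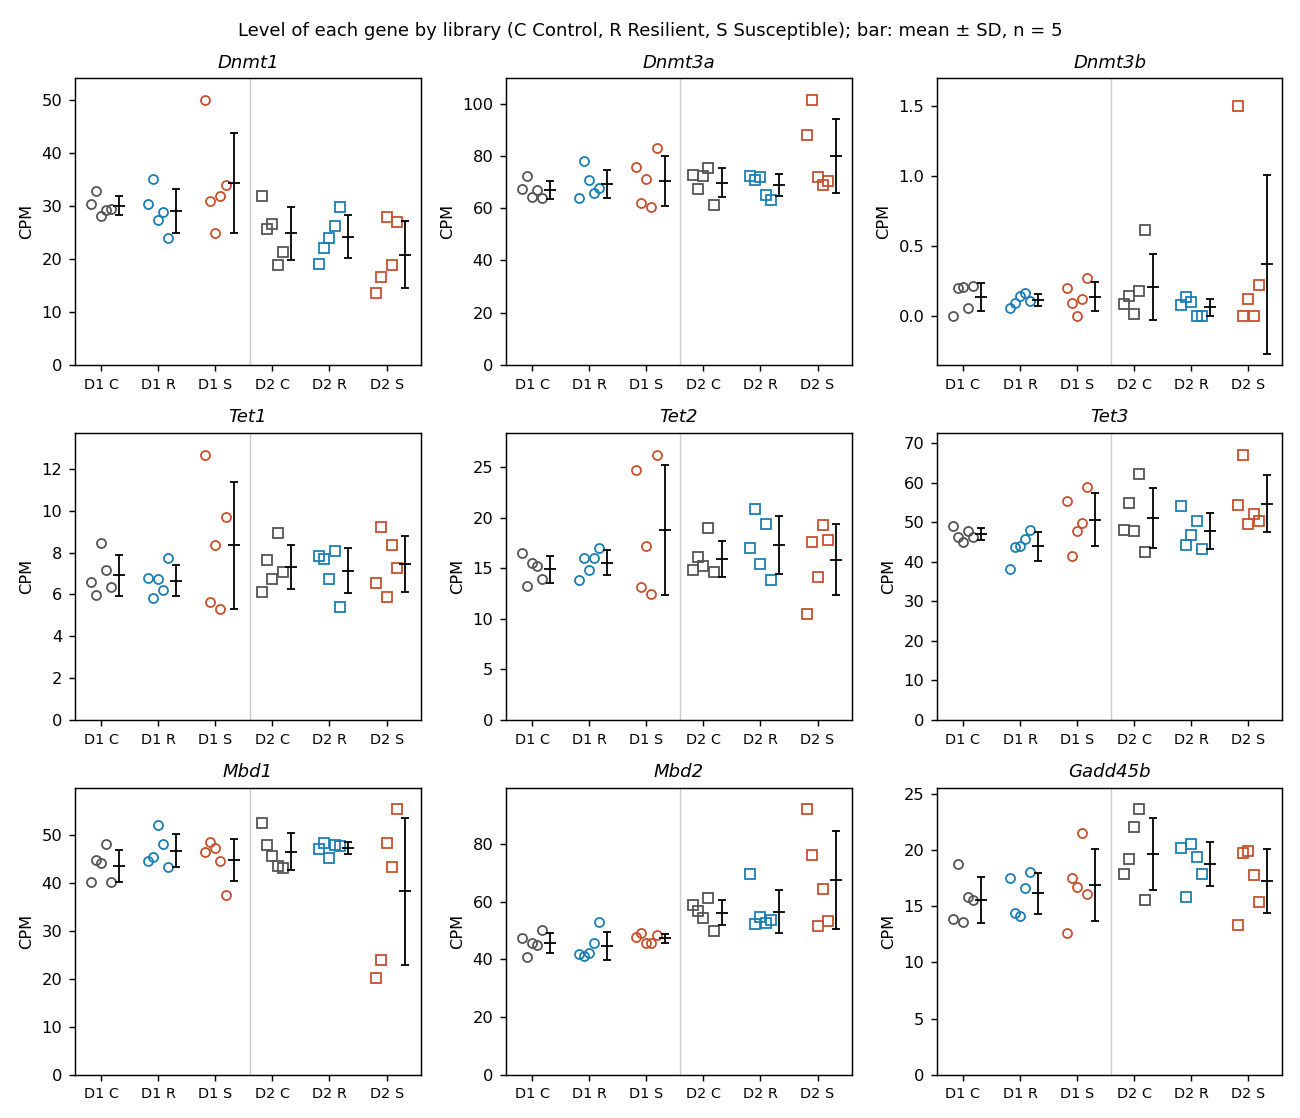
CPM of the 9 genes in each library (open symbols, circles for D1 and squares for D2), in 6 groups of 5, with the group mean and SD as bars. Mbd2 sits higher in D2 and Dnmt1 lower, Mbd1 has 2 low points in D2 Susceptible, at 20.1 and 24.0 CPM, and Tet1 and Tet2 have 2 high points in D1 Susceptible.

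Taken as a set across the classes, 2 of the 9 genes passed the test (Dnmt1 higher and Mbd2 lower in D1), while 29.3% of all genes tested did, 13.8% higher and 15.5% lower. An unadjusted p under 0.05 went to 3 of the 9 and to 39.4% of all genes. Their median log2 difference was -0.08, beside 0.00 over all genes. The share of the 9 that passed was thus not above that background. In Control libraries alone 0 of 9 passed by edgeR, against 8.3% of all genes, and Mbd2 and Gadd45b had an unadjusted p under 0.05, as did 20% of all genes. DESeq2 called none of the 9 there, and voom called these same 2 genes. Markers of other cell types also differed between the classes: 6 of 6 endothelial, 7 of 7 oligodendrocyte, 6 of 7 astrocyte and 5 of 7 microglial markers passed the test as higher in D2, and 6 of 7 interneuron markers as higher in D1. The summed endothelial markers were 12.7 to 39.0 CPM in D1 and 52.7 to 334 in D2, and the oligodendrocyte markers 391 to 1044 and 445 to 1923. Astrocyte markers summed to 265 to 711 and 281 to 668 CPM, microglial markers to 10.3 to 42.2 and 14.4 to 48.7, and interneuron markers to 312 to 497 and 71.2 to 291. The one marker at 0 in any library was 1 of the 7 microglial markers in D2 Susceptible replicate 2. The part of these cells in the class differences of Dnmt1 and Mbd2 was not tested.

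The stress comparisons asked whether the methylation genes differ between Control, Resilient and Susceptible within a class. In D1, 0 of 9 genes passed in each of the 3 comparisons, where the share of all genes called was 0%. DESeq2 called 3 genes in all for Susceptible against Control, 1 for Resilient against Control and 8 for Susceptible against Resilient, none of them among the 9. No unadjusted p of the 9 was under 0.05 by edgeR, a level reached by 2.4%, 2.6% and 3.49% of all genes. In D2, 0 of 9 passed in Susceptible against Control (0.00516% of all genes called), Resilient against Control (0%) and Susceptible against Resilient (0.0516%). Unadjusted p values under 0.05 went to Mbd2 (0.0291) and Dnmt3a (0.0494) in Susceptible against Control, and to Dnmt3a (0.0311) and Mbd2 (0.0353) in Susceptible against Resilient, where 15.7% and 19.1% of all genes had them. Resilient against Control had none among the 9, and 4.2% of all genes. No alternative fit called any of the 9 in the 6 stress comparisons.

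**Figure D4:**
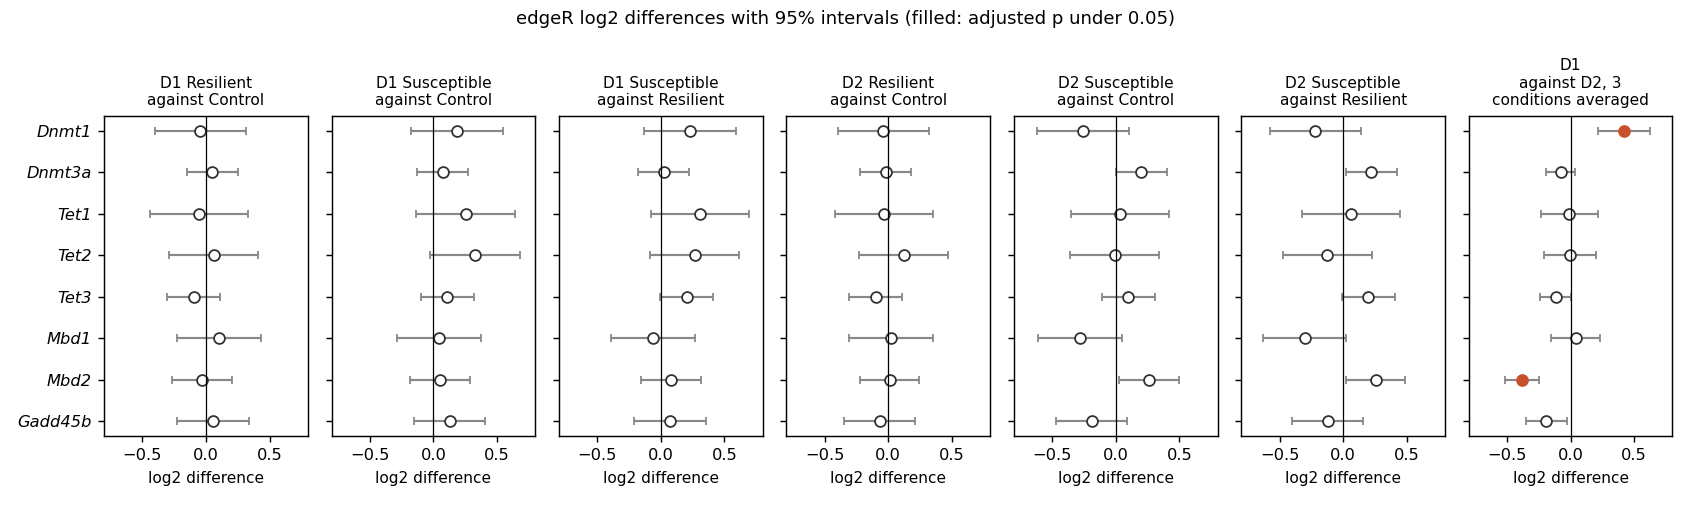
Log2 differences of 8 genes with 95% intervals in the 6 stress comparisons and in D1 against D2 averaged over conditions, filled where the edgeR adjusted p was under 0.05. All stress intervals lie between -0.63 and 0.70, and the filled points are Dnmt1 (0.42) and Mbd2 (-0.38) in the last panel. Dnmt3b, whose intervals are far wider, is left out.

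Each interval gives a range of change for 1 gene in 1 comparison, at 95% for that interval alone and not for all of them jointly. For the 8 genes other than Dnmt3b, the 48 stress changes ran from -0.30 to 0.33 on the log2 scale. Their 95% intervals reached from -0.63 to 0.70, which is -35.5% to 62.0%. Dnmt3a had the narrowest, with an interval of -0.22 to 0.18 in D2 Resilient against Control, and Tet1 in D1 Susceptible against Resilient the one reaching highest. The median change of the 9 was 0.11 in D1 Susceptible against Control, with 8 of 9 above 0, beside -0.01 over all genes. In D1 Susceptible against Resilient it was 0.20, also with 8 of 9 above 0, and these comparisons share the D1 Susceptible libraries. In the latter, several lists of markers of other cells were above 0 as well. These were 7 of 7 astrocyte (median 0.69), 6 of 6 endothelial (0.79), 7 of 7 microglial (0.45), 7 of 7 oligodendrocyte (0.21) and 5 of 5 D2 neuron markers (0.33). Interneuron markers (2 of 7 above 0, median -0.18) and D1 neuron markers (0 of 6, -0.08) went the other way. No marker passed the test, and the part of these cells in the values of the 9 was not tested. The medians in the other stress comparisons were -0.03 in D1 Resilient against Control, and 0.03, -0.03 and 0.06 in D2 Susceptible against Control, Resilient against Control and Susceptible against Resilient.

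Whether stress acted differently in the classes was tested as the D1 change minus the D2 change. Here 0 of 9 passed for Susceptible against Control, Resilient against Control and Susceptible against Resilient (0%, 0% and 0% of all genes called), and none had an unadjusted p under 0.05, a level that 7.79%, 4.99% and 12.4% of all genes reached. DESeq2 called 5, 7 and 47 genes in all and none of the 9. Dnmt1 had the smallest p in the first and last, with 0.44 (SE 0.249, edgeR adjusted p 0.659) and 0.45 (SE 0.249, edgeR adjusted p 0.467). Its value was 0.19 in D1 and -0.26 in D2 for Susceptible against Control. Without D1 Susceptible replicate 1 the D1 value was 0.03, and without D2 Susceptible replicates 1 and 2 the D2 value was -0.02.

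Of a list of 50 other genes of the pathway, all tested, none passed in any stress comparison or in any difference between the classes' changes. In D1, Gadd45g, a relative of Gadd45b, had the one unadjusted p under 0.05, with a log2 value of -0.33 (SE 0.155, p 0.0406, edgeR adjusted p 1) in Resilient against Control. In D2 Susceptible against Control the smallest p belonged to Gatad2a (-0.41, SE 0.151), a NuRD subunit, and Atf7ip (0.25, SE 0.0914), an Mbd1 partner, each with an edgeR adjusted p of 0.207. Against Resilient it belonged to Zbtb4 (0.49, SE 0.141, edgeR adjusted p 0.0780), a zinc finger reader, and Rbbp4 (-0.26, SE 0.0781, edgeR adjusted p 0.0862), a histone binding subunit. In D2 Resilient against Control the smallest p went to Ogt (0.19, SE 0.0678) and Uhrf2 (0.19, SE 0.0818), both with an edgeR adjusted p of 1.00. With D2 Susceptible replicate 3 left out, 6 of the 50 pathway genes passed in D2 Susceptible against Resilient, where 1964 genes passed in all. In D2 Susceptible against Control 1 of the 50 passed, where 828 genes did. The fit of all libraries tested 19368 genes. Whether these pathway counts exceed the share over all genes was not tested.

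Between the classes 9 of the 50 passed, 6 higher and 3 lower in D1 (29.3% of all genes called), with a median of 0.01 beside 0.00. Cdca7, which recruits the remodeller Hells for methylation upkeep, was 2.86 ± 1.01 CPM in D1 and 7.03 ± 2.18 in D2 (log2 -1.31, SE 0.176, edgeR adjusted p 8.11e-07). It was also the one pathway gene to pass in Control alone, with means of 3.29 and 6.58 CPM (edgeR adjusted p 0.0343), and this call was lost in 7 of 16 alternatives (largest edgeR adjusted p 0.132). Uhrf1, which brings Dnmt1 to half-methylated DNA, was near the detection limit at 0.360 ± 0.348 and 1.01 ± 0.832 CPM (log2 -1.54, SE 0.424, edgeR adjusted p 0.00606). They belong to a list of 7 maintenance and chromatin partners of the writers, of which 1 passed as higher in D1 (Usp7) and these 2 as lower, with 5 of 7 above 0 and a median of 0.04. Cxxc4, a TET partner, was lower by -0.33 (SE 0.111, edgeR adjusted p 0.0234), and by -0.12 (edgeR adjusted p 0.164) without D2 Susceptible replicates 1 and 2. Higher in D1 was Parp1, a repair enzyme (0.23, SE 0.0501, edgeR adjusted p 0.000825). Ahcyl2, listed here under methyl donor supply, was higher too (0.28, SE 0.0674, edgeR adjusted p 0.00169). So was Mta3, a NuRD subunit (0.91, SE 0.229, edgeR adjusted p 0.00342). The other 3 that passed were Mbd5 (0.20), Usp7 (0.11) and Mat2a (0.69), named after their values were seen. The Mat2a call was lost in 15 of 37 alternatives, with an edgeR adjusted p of 0.0987 without D2 Susceptible replicates 1 and 2.

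Among the 9 genes themselves the strongest opposite relation was that of Dnmt1 and Mbd2, with a Pearson r of -0.78 and a Spearman rho of -0.67 over the 30 libraries. It lay within D2 (r -0.81 over 15 libraries) and was weak within D1 (-0.12), and r was -0.72 without the 4 libraries that stood apart. Leaving out the 2 libraries farthest out, D1 Susceptible replicate 1 and D2 Susceptible replicate 1, it was -0.77. The 2 genes also differed between the classes in opposite directions, and with each group's mean subtracted r was -0.63. By that measure Mbd1 and Mbd2 were the strongest opposite pair (-0.74). Over the 30 libraries Mbd1 and Mbd2 gave -0.64, but 0.08 without D2 Susceptible replicates 1 and 2, so that relation rests on them. Dnmt3a followed Tet3 with r 0.69, or 0.53 without the same 2 libraries.

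The reads outside genes differed between libraries and moved with some of these genes. Leaving aside D1 Susceptible replicate 1, their share was 5.24% to 9.03% (median 5.50%) in D1 and 5.20% to 11.1% (median 6.13%) in D2. Over the 15 D2 libraries the Spearman rho with this share was -0.83 for Dnmt1, lower than for all but 1.06% of the genes tested, and -0.78 for Mbd1, beside a median of -0.10 over all genes. Over the 15 D1 libraries it was 0.65 for Tet1 and 0.68 for Tet2, higher than for 98.8% and 99.1% of the genes tested. There it was -0.63 for Gadd45b, beside a median of -0.04 over all genes. In D2 it was 0.51 for Tet1 and 0.24 for Tet2. Thus the D2 libraries with the most reads outside genes, Susceptible replicates 1 and 2 at 11.1% and 10.4%, were also those with the least Dnmt1 and Mbd1. The part of this share in the results was not tested.

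**Figure D5:**
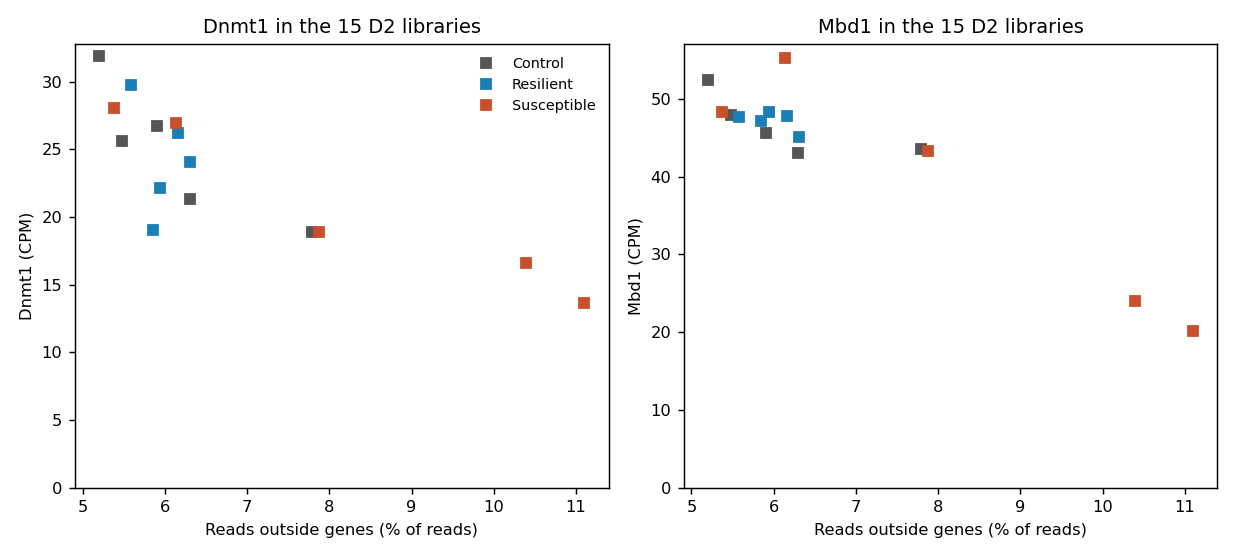
CPM of Dnmt1 (left) and Mbd1 (right) against the percentage of reads outside genes in the 15 D2 libraries, coloured by condition. Both fall to the right, where D2 Susceptible replicates 1 and 2 stand at 11.1% and 10.4%, and for Mbd1 the other 13 libraries lie between 43.0 and 55.3 CPM.

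By likeness of log2 CPM over the 30 libraries (Pearson r), the nearest genes to Dnmt1 were Fasn (0.94) and Supt6 (0.94), and both had r 0.88 without the 4 libraries that stood apart, where they ranked 43 and 46 and Ap1b1 (0.94) came first. Mbd2 was most like Mpped2 (0.92) and Hbegf (0.91), which ranked 13 and 15 (r 0.84 for both) without the 4 libraries, where Dhrs7 (0.90) came first. Mbd1 was most like Apex1 (0.93) and Txndc5 (0.92). The Mbd1 values fell to 0.52 and 0.53 without the 4 libraries, and those of Dnmt3a for Tsc1 (0.83) and Arid3a (0.80) to 0.59 and 0.50, so these likenesses rest largely on those libraries. After Tet2, Tet1 was most like Cacna1e (0.78), and after Tet1, Tet2 was most like Gabrg3 (0.75). Tet3 was nearest to Map3k1 (0.77) and Ep400 (0.76), and Gadd45b to Nhp2 (0.74) and Mgat4b (0.73). For Dnmt3b the nearest were BC030500 (0.60) and Osbpl11 (0.59), and without the 4 libraries they gave 0.19 and 0.48, with Saal1 (0.58) first. With a prior count of 5 BC030500 gave 0.65, and with group means subtracted Amotl2 (0.71) came first, so no neighbour of this barely detected gene was stable. With each group's mean subtracted, r was 0.92 for Dnmt1 with Fasn, 0.81 for Mbd2 with Mpped2 and 0.93 for Mbd1 with Apex1. In that measure Ttc28 (0.82) came before Tet2 (0.81) for Tet1, and Bach2 (0.86) was the nearest to Tet2.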

How the data were processed

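Ribosome-bound RNA was immunoprecipitated through the HA tag, and 10 ng per sample went into SMART-Seq v4 libraries, per the labels' protocols. The authors deposited raw read counts for each gene, made with HISAT2 and HTSeq on GRCm38/mm10 per the submitters' processing notes. Their versions, the annotation release and the strand setting are given in no source used here. Unassigned reads (10.1% to 53.3% of a library) stayed out of library sizes. The 30 files per library equalled the columns of the series table. Symbols, coordinates and exon lengths came from GENCODE M21, which named 55154 of 55335 genes. Of the 9 genes, 7 matched a RefSeq promoter.

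The 9 genes and all lists were chosen with earlier results of these data known. All 9 are named in every comparison. Of the pathway list, the rule names at most 3 called genes a direction, by adjusted p, or at most 2 by unadjusted p where none passed, and for each of the 9 the 2 genes of highest r. Genes passing filterByExpr (minimum count 10, minimum total 15) were fitted with edgeR 4.0.16 in R 4.3.3, TMM scaling, by the quasi-likelihood F test in 1 model of 6 groups. The 11 comparisons were each adjusted by Benjamini-Hochberg over 19368 genes (threshold 0.05). The common dispersion was 0.172. For likeness the prior count was 2. The test was tried on simulated data. Alternatives were DESeq2 1.42.0, its size factors, no filter, voom (limma 3.58.1), a replicate block, and leaving out libraries. The transcript length was added after the data were seen. Replicates pool different mice, and no pair of libraries agreed within sampling noise. Antisense partners overlap 133 exon bases of Dnmt3a and 43 of Tet2.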

Additional observations from a re-analysis of the deposited data

Results flagged for a closer look

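In 54 tests (9 genes in 6 groups of 5), the highest or lowest library stood far from the other 4 in 4 cases, where chance gives about 2.7 at 1 in 20. Dnmt3b was 0.616 CPM in D2 Control replicate 5, against 0.0182 to 0.183 in the other 4 libraries of that group. In D2 Susceptible replicate 1 it was 1.50 CPM, against 0 to 0.221 in the others. Tet3 was 67.2 CPM in D2 Susceptible replicate 2, against 49.5 to 54.5. Mbd2 was 69.7 CPM in D2 Resilient replicate 1, against 52.2 to 54.8, and Dnmt1 had its lowest value of that group, 19.0 CPM, in the same library.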

How the results depend on the processing

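The call of 0 of 9 genes held in every stress comparison and every difference between classes under all alternatives, and Dnmt1 and Mbd2 passed in all 37 alternatives of the class average. Leaving out 1 library gave 2 to 3 calls among the 9 there, the additional one being Gadd45b. In Control alone, 2 of the 9 passed with voom and without the 4 libraries, none of which is a Control library. Replicate numbers did not pair the libraries (correlations of -0.168 to 0.0779 over 75 pairs), and the replicate block raised the D2 Susceptible against Control count from 1 to 4 and changed no call among the 9.

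Counts over all genes depended on the setting, and the cause was not tested. D2 Susceptible against Control gave 1 gene, and 255 with DESeq2, 0 with no filter, 0 with voom, 0 without D2 Susceptible replicates 1 and 2, 0 without the 4 libraries and 0 to 828 on leaving out 1 library (828 without D2 Susceptible replicate 3). D2 Susceptible against Resilient gave 10, and 976 with DESeq2, 1 with voom, 0 without the 2 libraries, 0 without the 4 and 0 to 1964 (without D2 Susceptible replicate 3). D1 Susceptible against Resilient gave 0, with 8 by DESeq2, 14 by voom and 0 to 9 on leaving out 1 library. D1 Susceptible against Control gave 3 by DESeq2, D1 Resilient against Control 1 by DESeq2 and 180 by voom, and D2 Resilient against Control 5 and 2. D1 against D2 in Control gave 1608, with 5511 by voom, 3302 without the 4 libraries and 981 to 1794 on leaving out 1. For D1 minus D2 changes, Susceptible against Control gave 5 by DESeq2, Resilient against Control 7 by DESeq2 and 160 by voom, and Susceptible against Resilient 47 by DESeq2, 1 without the 2 libraries and 0 to 156 on leaving out 1. The class average ranged from 5161 to 6622.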
